A study of Mus musculus with 8 samples.

Results

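Most of the genes described here encode proteins that cut introns out of messenger RNA precursors or coat those precursors while it happens. Some LSm genes, among them Lsm1, Lsm10, Lsm11, Lsm14a and Lsm14b, have other roles, given with them below. For short, all 66 genes are called splicing genes. They were taken by symbol, with earlier results of these data known, as all rows of the expression table whose name begins with Srsf, Hnrnp, Snrp, Sf3a, Sf3b or Lsm followed by the pattern of that family, which gave 66 of 17634 genes. They fall into 11 SR protein genes (Srsf), 21 hnRNP genes (Hnrnp), 12 snRNP protein genes (Snrp), 9 genes of the SF3 complex (Sf3) and 13 genes of LSm proteins (Lsm). RNA came from crypts of the small intestine, the pockets of the epithelium where stem cells sit between Paneth cells and feed a zone of dividing progenitors. All mice were of the strain C57BL/6N and all had been irradiated 3 days before, so irradiation is common to both groups. The control group was 4 libraries of wild-type mice (WT) and the other group 4 libraries of mice with the genotype miR-29ab1-/-, called the knockout below. The labels do not say which cells carry the deletion, how old the mice were or what dose they received, and unirradiated crypts were not analysed here.

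Splicing is done by the spliceosome, which is assembled on each intron from small nuclear ribonucleoproteins (snRNPs). The core of most snRNPs is a ring of Sm proteins around a small nuclear RNA, and the U6 snRNP carries a related ring of LSm proteins instead. The SF3a and SF3b subcomplexes of the U2 snRNP hold the branch point of the intron. SR proteins bind exons and mostly favour their inclusion, whereas hnRNPs coat the precursor and often oppose it. Their genes are active in nearly all cells and most so in dividing ones.

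The locus removed in the knockout makes miR-29a and miR-29b. Their mature strands are shown with the seed (bases 2 to 8) in capitals, because the seed is what pairs with target messages. Sequences and positions are those of RefSeq on GRCm38.p6, where miR-29a-3p lies at chr6:31062673-31062694 and miR-29b-3p of the deleted locus at chr6:31063025-31063047, both on the minus strand.
miR-29a-3p: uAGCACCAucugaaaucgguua
miR-29b-3p: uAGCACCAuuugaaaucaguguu
Both strands share 1 seed, AGCACCA. Neither gene is among the rows used here, which leaves the genotype labels without a direct check. The same seed is carried by miR-29c-3p, which lies outside the deleted locus (chr1:195037600-195037621, plus strand). For miR-29b-3p only the copy in the deleted locus was looked up, so a copy elsewhere is not excluded.

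Libraries held 9481201 to 16231099 counts, and 64 of the 66 genes passed the filter on low counts. Srsf12 (0.179 to 2.39 CPM, counts scaled to a common library size, over the 8 libraries) and the pseudogene Hnrnpa1l2-ps2, with a count in 1 knockout library and none elsewhere, did not pass and were not tested. Crypt markers were present in both groups. The 6 Paneth cell markers summed to 8949 to 13013 CPM in wild type and 9740 to 30672 CPM in the knockout, and none of the 6 was called. Enterocyte markers were present as well and were higher in the knockout, as given below. Replicate 4 of each genotype had 3 and 1 counts of 4 Y-linked genes, against 1285 to 2061 in the other 6 libraries. The labels do not say that each library came from a different animal, so the p-values measure only the spread between these 8 libraries.

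Messages of the splicing genes were lower in the knockout, in each of the 5 classes. Of the 64 tested genes 53 fell and 1 rose, in edgeR's quasi-likelihood test with Benjamini-Hochberg adjustment over all 12908 tested genes and a threshold of 0.05. Over all tested genes 23.0 percent were called lower and 24.2 percent higher, whereas 82.8 percent of the splicing genes were called lower. The median log2 fold change (knockout over wild type) was −0.68 over the 64 genes and 0.03 over all genes. In 51 of the 64 the 4 knockout libraries all lay below the 4 wild-type libraries, which was so for 22.7 percent of all tested genes. The falls were modest and alike in size: called genes fell by 1.22-fold to 2.07-fold, and Lsm2 and Hnrnpa1 alone by 2-fold or more, which was so for 4.20 percent of all tested genes. With total-count scaling 55 of the 64 were called lower, against 31.1 percent of all tested genes, and none (0) higher, against 16.2 percent. In replicates 1 to 3 alone, a choice made after seeing the data, edgeR called 46 lower, against 18.5 percent of all genes tested there.

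**Figure D1:**
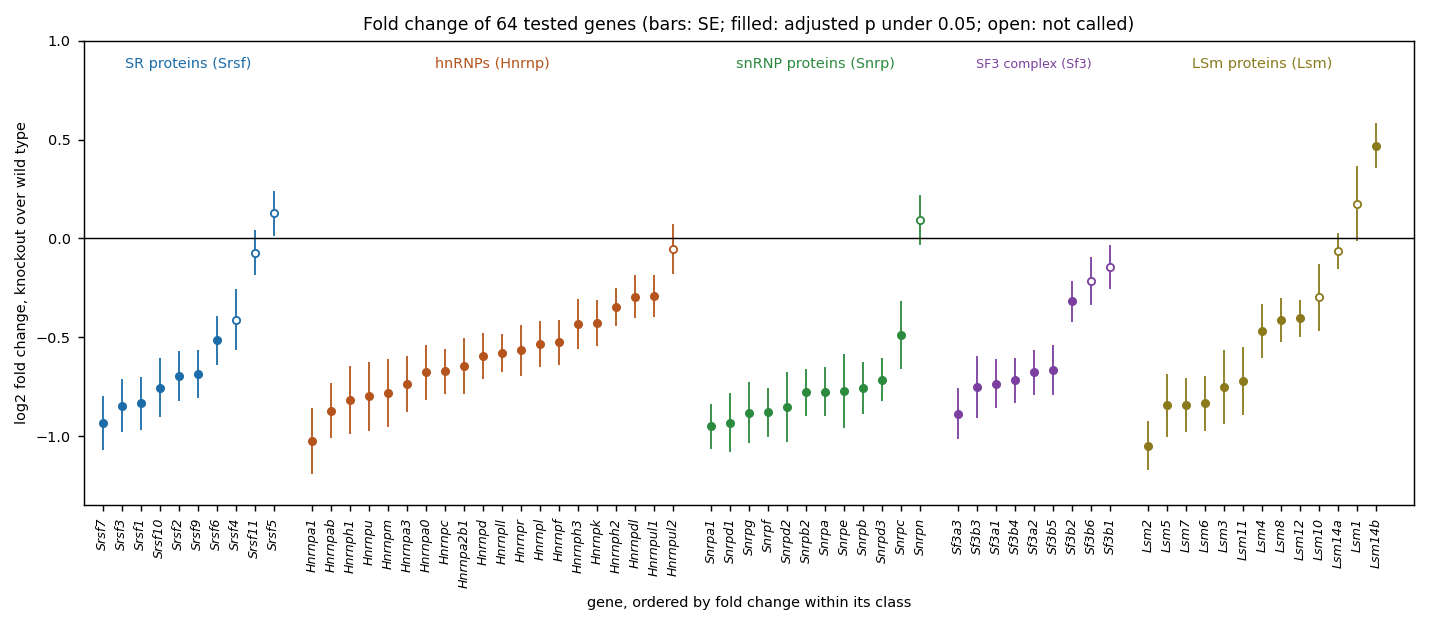
Log2 fold change (knockout over wild type, y axis) of each of the 64 tested genes, ordered within its class on the x axis; bars are standard errors (SE), filled points had an adjusted p under 0.05 and open points did not. All but 4 points lie below 0, and 1 of those 4, Lsm14b, is filled.

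Summed over all 66 genes, the wild-type level was 14556 ± 743 CPM and the knockout level 9473 ± 829 CPM (SD, n = 4 each). The wild-type libraries ran from 13757 to 15511 CPM and the knockout libraries from 8263 to 10090 CPM, so the groups did not overlap. As a share of all counts without any scaling, the genes took 1.499, 1.53, 1.64 and 1.74 percent in wild-type replicates 1 to 4 and 0.659, 0.794, 1.05 and 0.991 percent in knockout replicates 1 to 4. The sum was 1.72-fold higher in wild type for the snRNP proteins, 1.57-fold for the hnRNPs, 1.48-fold for the SR proteins, 1.41-fold for the SF3 genes and 1.37-fold for the LSm genes. Whether the classes differ from each other in their response was not tested.

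**Figure D2:**
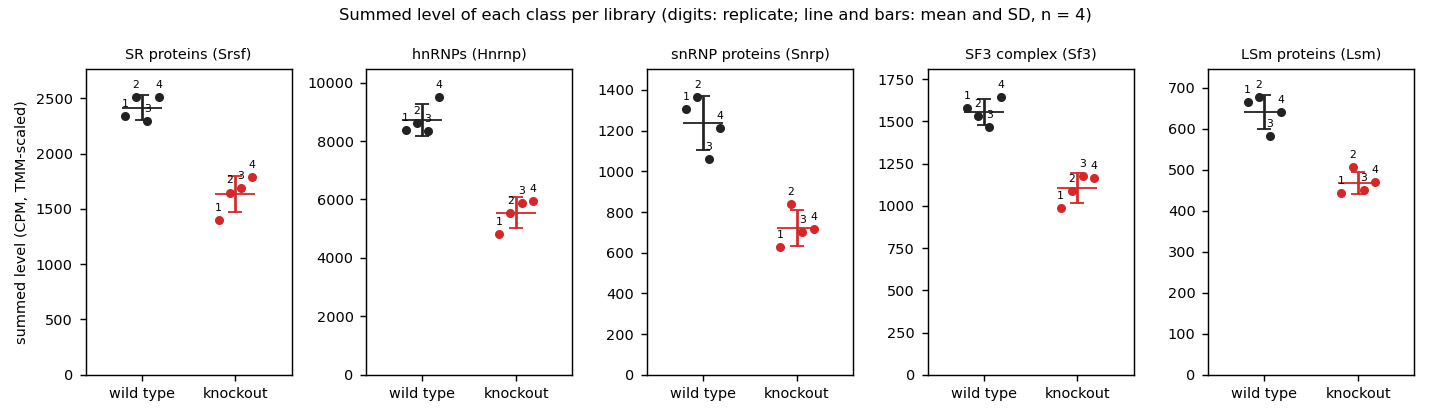
Summed level (CPM scaled by TMM factors, y axis from 0) of the genes of each class in each library; digits are replicate numbers, and lines with bars are means with SD (n = 4). In each of the 5 classes the knockout libraries lie below all wild-type libraries, and knockout replicate 1 is the lowest.

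Marker genes of dividing cells and enterocytes also differed between the groups. All 12 markers of dividing cells fell, among them Mki67 and Top2a, and their summed level was 2287 to 2792 CPM in wild type and 795 to 1336 CPM in the knockout. All 12 enterocyte markers rose, from sums of 1748 to 11271 CPM to sums of 27146 to 92370 CPM. Knockout replicate 1 had the lowest sum for splicing genes and for dividing cells and the highest for enterocytes. Among wild-type libraries, the enterocyte sum was lowest in replicate 4 (1748 CPM) and highest in replicate 2 (11271 CPM). In those libraries the splicing genes summed to 15511 and 14694 CPM and the markers of dividing cells to 2792 and 2287 CPM. Other libraries did not keep this order. Wild-type replicate 3 had the lowest splicing sum of its group (13757 CPM), with an enterocyte sum of 3353 CPM. Knockout replicate 3 had the lowest enterocyte sum of its group (27146 CPM), but its splicing sum (9911 CPM) was below that of knockout replicate 4 (10090 CPM). In bulk RNA fewer cells of a type and less RNA per cell cannot be told apart, and the part of cell composition in the results below was not tested. Sums of 9 fibroblast and muscle markers (14.7 to 173 CPM in wild type, 12.9 to 197 CPM in the knockout) and of 7 immune markers (29.1 to 89.2 and 41.4 to 261 CPM) overlapped between the groups, and 5 of each passed the filter with none called. The fibroblast and muscle sums were 14.7, 22.3, 173 and 52.4 CPM in wild-type replicates 1 to 4. In knockout replicates 1 to 4 they were 14.2, 12.9, 195 and 197 CPM, so in both genotypes replicates 3 and 4 were the higher. Of the fibroblast and muscle list, Myh11 (0.326 and 0.215 CPM, group means) was near 0. Of 6 stem cell markers 3 fell, with sums of 587 to 886 and 455 to 911 CPM.

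The SR proteins carry stretches of arginine and serine that recruit the spliceosome. Of 10 tested Srsf genes 7 fell and none rose. Srsf7 had the largest fall, from 220, 223, 192 and 206 CPM in wild-type replicates 1 to 4 to 84.5, 116, 118 and 122 CPM in the knockout. That is 1.91-fold (log2 fold −0.93, SE 0.14, adjusted p = 0.00131), and every knockout library was below every wild-type library. Srsf3, the smallest of the family, stood at 301, 336, 252 and 277 CPM in wild type and 141, 183, 161 and 163 CPM in the knockout, 1.80-fold lower. Srsf1, the founding member, stood at 400, 437, 392 and 450 CPM in wild type and 192, 235, 257 and 258 CPM in the knockout (1.78-fold lower, adjusted p = 0.00162). Both separated the groups fully. Srsf2, the most abundant of the class per length in wild type (298 ± 21.5 FPKM, SD, n = 4), Srsf9 and Srsf10 fell 1.62-fold, 1.61-fold and 1.69-fold, and Srsf6 1.43-fold. Srsf10 is an atypical member that represses splicing when dephosphorylated.

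Srsf5 was not called. Its level was 233, 222, 264 and 258 CPM in wild type and 264, 252, 255 and 296 CPM in the knockout, so the groups overlapped (log2 fold 0.13, SE 0.11, adjusted p = 0.386). The approximate 95 percent interval of that log2 fold (1.96 SE to each side) ran from −0.10 to 0.35. That of Srsf7 ran from −1.20 to −0.66. Such intervals, here and below, take a normal spread and are narrower than the F test itself would give. Per length, Srsf5 was below Srsf2 in wild type (190 ± 26.0 against 298 ± 21.5 FPKM) and within the spread of it in the knockout (172 ± 28.3 against 149 ± 25.9 FPKM, SD, n = 4). Srsf11 was not called either, at 151 ± 1.88 and 144 ± 18.2 CPM (interval −0.30 to 0.16). Srsf4 was at 110 ± 10.98 and 82.7 ± 16.9 CPM and missed the threshold (log2 fold −0.41, adjusted p = 0.0543). With the replicate number as a block Srsf4 was called (adjusted p = 0.0136), as it was without wild-type replicate 2 or knockout replicate 4 (0.0482 and 0.0116), in replicates 1 to 3 alone (0.0314) and with 5 other settings given below.

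The hnRNPs are the bulk of the protein on new transcripts. Of 20 tested Hnrnp genes 19 fell, among them all 5 genes of the A/B family, whose best-known product is the exon-skipping factor hnRNP A1. Hnrnpa1 went from 696, 703, 683 and 832 CPM in wild type to 273, 341, 382 and 436 CPM in the knockout. This was 2.03-fold (log2 fold −1.02, SE 0.17, adjusted p = 0.00167), with wild-type replicate 4 the highest library. Hnrnpab stood at 1040, 1066, 958 and 1130 CPM in wild type and at 470, 618, 611 and 595 CPM in the knockout, 1.83-fold lower. Hnrnpa3 fell 1.66-fold (1124 ± 96.7 to 676 ± 82.0 CPM, SD, n = 4), Hnrnpa0 1.599-fold and Hnrnpa2b1, whose protein reads methylated adenosines, 1.56-fold. Reads of Hnrnpa1 can also fit its processed pseudogenes, and how the counting treated such reads is not given in the sources used here.

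Outside the A/B family, Hnrnpc, which binds uridine tracts, fell from 368, 386, 353 and 379 CPM to 216, 258, 243 and 215 CPM (1.59-fold, adjusted p = 0.00193). Hnrnpll, known for the switch of CD45 isoforms in lymphocytes, fell 1.49-fold from 76.8 ± 4.13 to 51.4 ± 4.04 CPM, and its relative Hnrnpl 1.45-fold. Hnrnpd, or AUF1, which binds AU-rich elements and promotes decay, fell 1.51-fold. The scaffold protein gene Hnrnpu, with Hnrnph1 and Hnrnpm, fell 1.74-fold, 1.76-fold and 1.72-fold. Smaller falls were those of Hnrnpf (1.44-fold), Hnrnpr (1.48-fold), Hnrnpk (1.34-fold), Hnrnph3 (1.35-fold) and Hnrnph2 (1.27-fold). Hnrnpul2, a relative of Hnrnpu with a role at DNA breaks, was not called, at 249.4 ± 28.9 and 240 ± 20.2 CPM (interval of the log2 fold −0.30 to 0.19).

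Hnrnpdl and Hnrnpul1 fell by 1.23-fold and 1.22-fold with adjusted p-values next to the threshold (0.0491 and 0.0489). Their calls were lost in replicates 1 to 3 alone and without most single libraries, with knockout replicate 2 the exception for Hnrnpdl and none for Hnrnpul1 (adjusted p from 0.0506 to 0.164 over both genes). The call of Hnrnph2 was lost without wild-type replicate 4 (0.0510) and that of Hnrnph3 without wild-type replicate 3 (0.0585). Counts of Hnrnpab, Hnrnpf, Hnrnph3 and Hnrnpu were not whole in 4 to 8 libraries, and how the counting came to fractions is not known here.

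The Snrp genes encode the Sm ring and the proteins particular to the U1 and U2 snRNPs. Of 12 tested 11 fell, and all 7 genes of the Sm ring were among them, by 1.64-fold (Snrpd3) to 1.91-fold (Snrpd1). Snrpd1 stood at 128, 137, 105 and 126 CPM in wild type and 53.5, 77.5, 56.8 and 71.9 CPM in the knockout (adjusted p = 0.00161). Snrpf stood at 101, 98.5, 84.4 and 98.4 CPM in wild type and 41.8, 57.5, 53.6 and 54.8 CPM in the knockout, 1.84-fold lower. For each of the 7 genes the knockout libraries all lay below the wild-type libraries, which was so for 22.7 percent of all tested genes. These are levels of messages, and neither the proteins nor the assembled ring was measured. Per length, Snrpg was the most abundant of all 66 genes in wild type, at 513 ± 40.8 FPKM (SD, n = 4), with Hnrnpab (490 ± 31.5) and Hnrnpa1 (482 ± 53.7) within its spread. Next in the ring came Snrpd2 (333 ± 54.1 FPKM), then Snrpe, Snrpb and Snrpd3 at 244 ± 46.9, 236 ± 14.9 and 228 ± 12.2 FPKM, which did not differ beyond their spread, then Snrpd1 (190 ± 13.5) and Snrpf (152 ± 5.07). In the knockout the same genes ran from 231 ± 47.9 FPKM (Snrpg) to 69.0 ± 14.5 FPKM (Snrpf), on a scale without TMM factors.

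Of the U2-specific proteins, Snrpa1 had the smallest p of the class. It fell from 86.0, 80.4, 77.5 and 89.9 CPM to 36.0, 47.7, 44.0 and 45.0 CPM, 1.93-fold (log2 fold −0.95, SE 0.11, adjusted p = 0.00108). Its partner Snrpb2 fell 1.71-fold. The U1 protein gene Snrpa also fell 1.71-fold, and Snrpc, which helps U1 hold the 5′ splice site, 1.40-fold with overlapping groups (103, 123, 78.0 and 85.8 CPM against 72.1, 85.1, 60.4 and 60.1 CPM, adjusted p = 0.0430). Leaving out any of 5 libraries ended the call of Snrpc, namely replicates 1 and 2 of wild type and 1, 3 and 4 of the knockout (adjusted p from 0.0677 to 0.114), as did the fit of replicates 1 to 3 alone (0.0949). Snrpn, an imprinted gene whose protein replaces SmB in the brain, was the exception of the class, at 15.5, 13.9, 13.7 and 14.1 CPM in wild type and 14.7, 17.2, 15.7 and 13.5 CPM in the knockout. The groups overlapped and the interval of the log2 fold was −0.16 to 0.34. Of 7 markers of neurons and glia, Ret alone passed the filter on low counts, and it was called higher in the knockout (1.79-fold, adjusted p = 0.0179). The summed level of the 7 was 6.83 to 11.6 CPM in wild type and 12.99 to 17.3 CPM in the knockout, without overlap. Near 0 were Elavl4 (0.123 and 0.0865 CPM, group means), S100b (0.0777 and 0.450 CPM, groups that did not overlap) and Sox10 (0.0275 and 0.0499 CPM). Their part in the level of Snrpn was not tested. The counts of Snrpn were not whole in all 8 libraries.

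**Figure D3:**
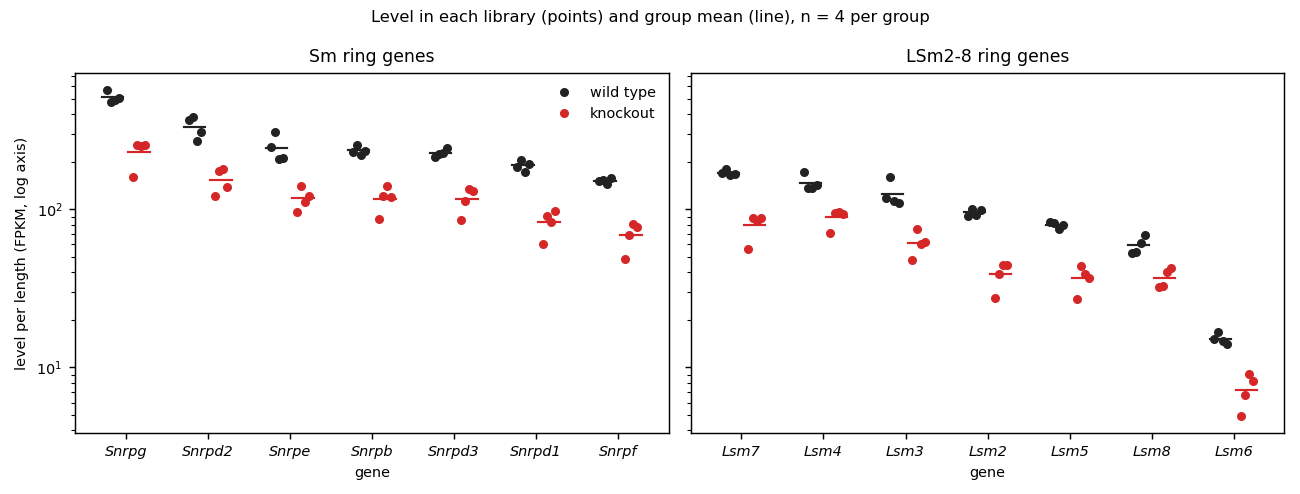
Level per length (FPKM, log axis) of the genes of the Sm ring (left) and of the LSm2-8 ring (right) in each library, wild type in black and knockout in red; lines are group means, n = 4. The knockout points lie below the wild-type points for each of the 14 genes on this scale. FPKM carry no TMM factors, and in CPM the groups of Lsm4 overlapped. Lsm6, at 15.2 ± 1.11 FPKM in wild type, lies far below the other ring genes.

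Of 9 tested SF3 genes 7 were called lower, and the log2 folds of all 9 were below 0. All 3 genes of SF3a fell: Sf3a3 from 91.0, 93.2, 79.3 and 96.5 CPM to 38.6, 52.0, 48.9 and 55.3 CPM (1.85-fold, adjusted p = 0.00128), Sf3a1 by 1.67-fold and Sf3a2 by 1.599-fold. In SF3b, Sf3b3 fell from 294, 278, 291 and 334 CPM to 133, 169, 203 and 206 CPM (1.68-fold), Sf3b4 by 1.64-fold and Sf3b5, the most abundant of the complex per length (150 ± 10.3 FPKM in wild type, SD, n = 4), by 1.59-fold. Sf3b1, the large subunit that holds the branch-point helix and is often mutated in myeloid disease, was at 311, 331, 326 and 346 CPM in wild type and 291, 267, 319 and 311 CPM in the knockout. Its groups overlapped and it was not called (interval of the log2 fold −0.36 to 0.07). Sf3b6, which contacts the branch-point adenosine, was not called either (60.9 ± 5.75 and 52.4 ± 6.75 CPM; interval −0.45 to 0.02), but was with upper-quartile factors, total-count scaling and FPKM (adjusted p = 0.0412, 0.00344 and 0.00180). Sf3b2 fell 1.25-fold, and that call was lost without wild-type replicate 1, 2 or 4 (adjusted p = 0.0863, 0.0546 and 0.0875) and in replicates 1 to 3 alone (0.111).

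Of 13 LSm genes 9 fell and 1 rose. The nuclear ring of LSm2 to LSm8 binds the end of U6 RNA, and all 7 of its genes fell. Lsm2 had the largest fall of all 64 genes, from 65.1, 70.2, 57.9 and 66.9 CPM to 25.3, 34.7, 31.7 and 34.0 CPM (2.07-fold, log2 fold −1.05, SE 0.12, adjusted p = 0.00108). Lsm5, Lsm6 and Lsm7 fell 1.79-fold, 1.78-fold and 1.79-fold, and Lsm3 1.69-fold. Lsm4 and Lsm8 fell less, 1.38-fold and 1.33-fold. Lsm4 was at 123, 101, 86.3 and 98.7 CPM in wild type and 69.6, 87.3, 65.9 and 73.1 CPM in the knockout, with groups that overlapped, and its call was lost without wild-type replicate 1 (adjusted p = 0.0600) and in replicates 1 to 3 alone (0.0691). Lsm8, the subunit that keeps the ring in the nucleus, was at 32.1, 31.7, 32.3 and 39.2 CPM in wild type and 25.1, 24.8, 23.9 and 27.8 CPM in the knockout.

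Lsm1, which takes the place of LSm8 in the cytoplasmic ring that promotes decapping and decay of messages, was at 23.3, 20.99, 15.9 and 19.7 CPM in wild type and 25.4, 28.6, 18.9 and 17.3 CPM in the knockout. It was not called, and its interval was wide (−0.20 to 0.55). Lsm14b, whose protein sits on repressed messages in cytoplasmic granules, rose from 25.6, 21.3, 20.6 and 21.4 CPM to 33.9, 27.5, 31.0 and 30.5 CPM (log2 fold 0.47, SE 0.12, adjusted p = 0.00935). It was the one gene of the 64 called higher, against 24.2 percent of all tested genes, and the call was lost with total-count scaling, with FPKM and in replicates 1 to 3 alone (log2 folds 0.21, 0.18 and 0.42; adjusted p = 0.264, 0.305 and 0.0587). Its relative Lsm14a was not called, at 100.4 ± 5.41 and 96.2 ± 4.95 CPM (interval −0.24 to 0.12). Of the 2 LSm proteins of the U7 snRNP, which trims histone messages, Lsm11 fell 1.65-fold from 14.7 ± 1.47 to 8.90 ± 1.67 CPM and Lsm10 was at 8.44 ± 0.855 and 6.87 ± 0.825 CPM without a call. Lsm12 fell 1.32-fold.

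For genes that did not fall, the ratio to a partner, in most pairs one that fell, was taken within each library. As 53 of the 64 tested genes fell, such partners are common, and a higher ratio in the knockout largely follows from the calls. These pairs were picked after their values were seen, so the ratios are given without a test. Srsf5 was 2.01, 1.89, 2.27 and 1.99 times as abundant per length as its close relative Srsf6 in wild-type replicates 1 to 4, and 3.78, 3.04, 2.69 and 3.30 times in the knockout. Srsf11 relative to Srsf10 was 0.928 to 1.24 in wild type and 1.54 to 1.81 in the knockout. Sf3b1 stood near parity with Sf3b3 in wild type (0.976 to 1.099) and above it in the knockout (1.44 to 2.07). The ratio of Snrpn to Snrpb was 0.0307 to 0.0397 in wild type and 0.0597 to 0.0732 in the knockout, so Snrpn was the minor partner in both. Hnrnpul2 to Hnrnpu went from 0.267 to 0.345 in wild type to 0.458 to 0.622 in the knockout, and Lsm14b to Lsm14a from 0.214 to 0.288 to 0.314 to 0.364. Relative to Hnrnpul1, Hnrnpul2 was 0.708 to 0.856 in wild type and 0.858 to 0.969 in the knockout, so these groups all but touched. These ratios did not overlap between groups, whereas that of Lsm1 to Lsm8 did (0.173 to 0.232 in wild type, 0.216 to 0.404 in the knockout).

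**Figure D4:**
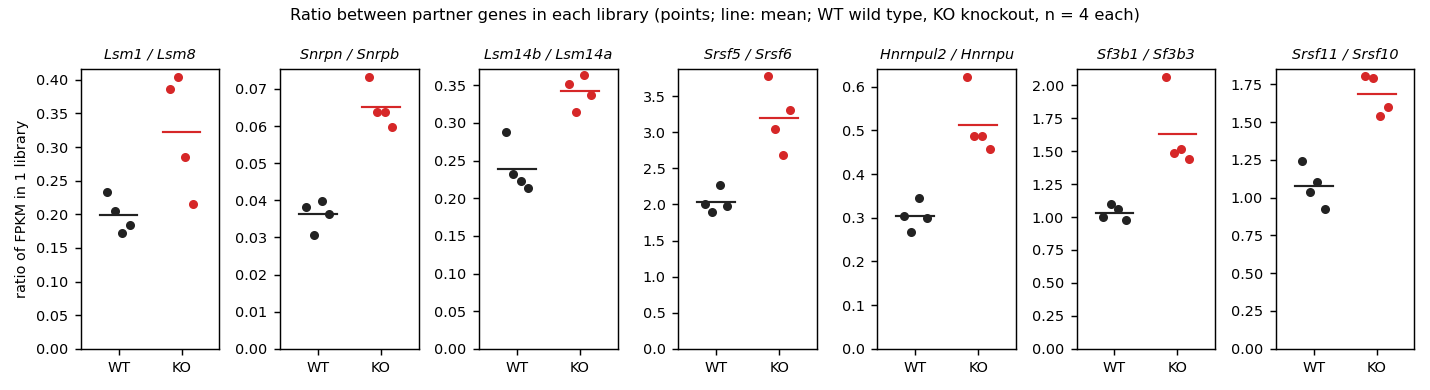
Ratio of FPKM between 2 partner genes within each library (y axes from 0, 1 panel per pair), wild type (WT) on the left and knockout (KO) on the right; lines are means, n = 4. In 6 of the 7 panels all knockout points lie above all wild-type points, and in the panel of Lsm1 and Lsm8 they overlap.

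Other parts of the splicing machinery were followed in 10 lists that hold none of the 66 genes. Of their 151 tested genes 90 fell (59.6 percent) and 8 rose (5.30 percent), against 23.0 and 24.2 percent of all tested genes. The median log2 fold of the 151 was −0.48. Proteins that build snRNPs gave the lowest median (−0.80, 13 of 16 lower). Clns1a, which delivers Sm proteins to the methylosome, fell 1.74-fold, Prmt5, the enzyme that methylates them, 2.05-fold, and Gemin6, of the SMN complex that loads the Sm ring, 2.19-fold. In the U5 and tri-snRNP list 14 of 17 fell, with the smallest p for Usp39 (1.88-fold) and Ppih (1.95-fold). In the U2-associated list 11 of 13 fell, among them U2af1, which reads the 3′ splice site (1.65-fold), and the helicase gene Dhx15 (1.70-fold). Of 5 exon junction complex genes 4 fell (Magohb 1.89-fold, Rbm8a 1.62-fold), and of 7 U1-associated genes 3 (Snrnp70 by 1.54-fold). Of 36 other splicing regulators 22 fell, with Nono down 1.73-fold and Syncrip down 1.72-fold. Their 2 higher members, Mbnl2 (1.58-fold) and Rbm5 (1.35-fold), are named because they were so few, and the call of Rbm5 was lost with total-count scaling and in replicates 1 to 3 alone (adjusted p = 0.400 and 0.0565).

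A few lists did not follow. In the minor spliceosome, which removes a rare class of introns, 1 of 11 genes fell, 9.09 percent, against 23.0 percent of all tested genes. That gene was Zrsr2 (1.40-fold), whose call depended on each of 3 wild-type libraries, replicates 1, 2 and 4 (without them adjusted p = 0.0571, 0.0504 and 0.0730) and in replicates 1 to 3 alone (0.0655). Snrnp25 was at 12.5 ± 3.72 and 7.92 ± 1.59 CPM and missed the threshold (adjusted p = 0.0545; 0.0128 with the replicate block, 0.0255 by upper-quartile factors, 0.00664 by total-count scaling, 0.0467 in DESeq2, 0.0230 without wild-type replicate 3 and 0.0369 without knockout replicate 2). The log2 folds of the list ran from −0.66 to 0.43, with a median of −0.19. Its median count, 217.6 per library, was below that of the other 9 lists, and the part of depth in its calls was not tested.

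The kinases that phosphorylate SR proteins moved in both directions. Of 8 tested 3 rose (37.5 percent) and 1 fell (12.5 percent), against 24.2 and 23.0 percent of all tested genes. Clk1, which acts on SR proteins in the nucleus, rose from 46.7, 55.2, 44.9 and 52.5 CPM to 88.1, 89.2, 76.7 and 93.1 CPM (1.74-fold, log2 fold 0.80, SE 0.11, adjusted p = 0.00116). Srpk1, which acts on them in the cytoplasm, fell from 101, 98.9, 104 and 109 CPM to 71.6, 71.8, 83.9 and 74.4 CPM (1.37-fold). Both separated the groups. Clk4 rose 1.34-fold and Dyrk1a 1.40-fold, calls that were lost with total-count scaling (adjusted p = 0.459 and 0.222; Clk4 also in replicates 1 to 3 alone, 0.0654), and the other 4 tested kinases were not called. Among SR-related proteins 8 of 17 fell, with the smallest p among them for Rnps1 (1.55-fold), and 1 rose: Rsrp1, from 61.8, 49.9, 54.3 and 55.1 CPM to 103, 117, 114 and 136 CPM (2.12-fold, adjusted p = 0.00108). In the list of catalytic activation 13 of 21 fell, with Ppil1 and Isy1 each down 1.91-fold, and 2 rose. Those were Syf2 (1.48-fold), whose call was lost in replicates 1 to 3 alone (0.0526), and Slu7 (1.26-fold), a step-II factor. The call of Slu7 ended without any of 5 libraries, replicates 1, 3 and 4 of wild type and 1 and 2 of the knockout (0.0646 to 0.108). That call also ended with upper-quartile factors (0.0550), total-count scaling (0.628), no low-count filter (0.0610) and FPKM (0.683), and in replicates 1 to 3 alone (0.111).

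**Figure D5:**
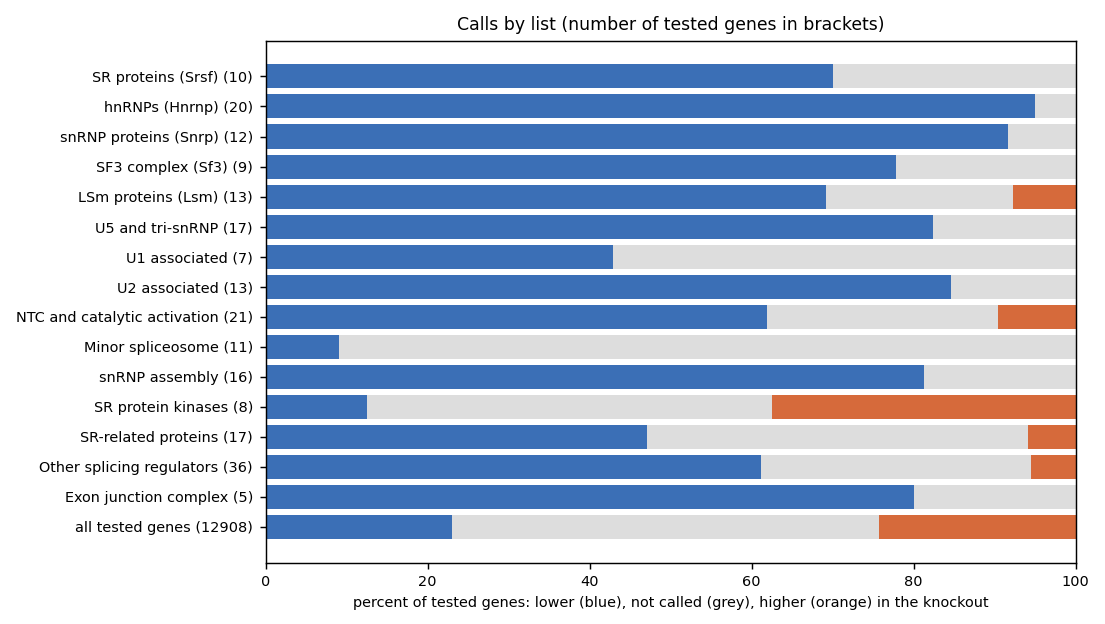
Percent of the tested genes of each list (number in brackets) called lower, not called or called higher in the knockout (x axis, stacked to 100 percent), for the 5 classes, the 10 lists of other splicing genes and all 12908 tested genes. The blue share is 69.2 percent or more in each of the 5 classes, 9.09 percent in the minor spliceosome and 23.0 percent over all tested genes.

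Matches to the miR-29 seed were about as frequent among these genes as among all tested genes. The 7 letters that pair with the seed, TGGTGCT, were found on the message strand in the longest annotated 3′ UTR (GENCODE M21) of 8 of the 64 tested genes, 12.5 percent, against 15.5 percent of all tested genes with a 3′ UTR. The 3′ UTRs of the splicing genes were shorter, with a median of 836 bases against 1152. Of the 8 genes with a match, 6 fell, Lsm14b rose and Lsm1 was not called, and their median log2 fold was −0.53. For the 56 without a match it was −0.69, with 47 called lower. Over all tested genes the medians with and without a match were 0.04 and 0.03. Sites in the one gene that rose, the one not called, and 2 that fell are shown with the match in capitals.
Lsm14b: catctggccccTGGTGCTgctggcctggt
Lsm1: aagccctcaaaTGGTGCTtagtaacaatt
Srsf1: ttttgtaggggTGGTGCTattttcagcat
Lsm11: ctcctgtggcaTGGTGCTagtgcatgtga
In Srsf1 and Lsm11 the match is followed by an A, and Lsm11 held 3 matches in its 3′ UTR. A match is a run of letters and not a measured site, and miR-29c-3p, from outside the deleted locus, has the same seed. The level of Lsm11 fell 1.65-fold and that of Srsf1 1.78-fold in the knockout, as given above.

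Promoters of genes that moved together are shown beside those of genes that did not. RefSeq promoters (GRCm38.p6, 250 bases before to 50 after the first-listed start) matched 55 of the 64 tested genes and 10299 of all tested genes. Each printed stretch is the 100 bases before the start, 5′ to 3′ on the strand of the gene, with matches to the motifs below in capitals. Hnrnpa1 (chr15:103240297-103240396, plus strand) and Snrpg (chr6:86371440-86371539, plus strand) fell, Srsf5 (chr12:80945399-80945498, plus strand) was not called and Lsm14b (chr2:180024887-180024986, plus strand) rose.
Hnrnpa1: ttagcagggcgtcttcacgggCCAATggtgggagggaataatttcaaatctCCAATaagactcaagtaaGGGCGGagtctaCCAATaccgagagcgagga
Snrpg: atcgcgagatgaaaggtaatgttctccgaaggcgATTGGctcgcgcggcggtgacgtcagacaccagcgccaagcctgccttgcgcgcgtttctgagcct
Srsf5: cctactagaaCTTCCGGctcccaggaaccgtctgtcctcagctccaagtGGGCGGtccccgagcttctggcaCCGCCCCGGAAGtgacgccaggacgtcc
Lsm14b: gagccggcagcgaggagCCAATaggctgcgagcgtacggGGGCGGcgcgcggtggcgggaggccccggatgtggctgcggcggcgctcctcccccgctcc
Hnrnpa1 carries 3 CCAAT boxes in this stretch, and in Srsf5 a GC box and an ETS motif overlap.

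Motifs were searched on both strands of the 300 bases. The CCAAT box (CCAAT) was in 49.1 percent of the 55 promoters, against 39.0 percent of tested genes and 37.9 percent of all 27025 genes in the table. The GC box (GGGCGG) was in 72.7 percent, against 63.2 and 35.9 percent, and the ETS motif (CCGGAAG) in 30.9 percent, against 18.1 and 9.12 percent. An E2F-like motif (TTTNNCGC) was in 14.5 percent, against 8.31 and 5.27 percent. The TATA box (TATAAA) was in 10.9 percent, against 7.59 and 14.2 percent, and the E-box (CACGTG) in 9.09 percent, against 10.1 and 7.24 percent. The YY1 motif (AAGATGGC) was in 5.45 percent, against 4.68 and 2.88 percent. The core of the NRF1 motif (GCATGCG) was in 10.9 percent, against 6.33 and 3.64 percent, while its full palindrome, the core with GC before and C after, was in none (0) of the 55 and in 1.97 percent of tested genes. The median number of CG pairs in the 300 bases was 24 in splicing genes, 20 in tested genes and 7 over the whole table. These figures pool 46 splicing genes that fell and 9 that did not. ETS was in 13 of the 46 and 4 of the 9, the GC box in 33 and 7, E2F in 6 and 2 and the NRF1 core in 4 and 2. CCAAT was in 24 and 3, TATA in 6 and 0, the E-box in 5 and 0 and YY1 in 3 and 0. Whether the 2 sets differ was not tested.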

How the data were processed

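RNA was extracted with TRIzol, per the labels' protocols, and the submitters' processing notes list HISAT2 and DESeq2 with neither role nor version. Not given in the sources used here were counter, build, annotation and strand setting. Values deposited as estimated counts, per the file headers read counts per gene, were not whole in 8.04 to 9.18 percent of values and were rounded. The other deposited columns have no unit in their header and were here inferred to be FPKM, since their ratio to the counts scaled with the inverse of the library total (largest deviation 1.06 percent). Group means by the authors were left out.

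The test was that of edgeR 4.0.16 (R 4.3.3) with glmQLFit and glmQLFTest after filterByExpr and TMM, with genotype as the one term, checked on simulated data, with Benjamini-Hochberg adjustment at 0.05. CPM carry TMM factors; SE is the log2 fold divided by the square root of F. Levels between genes are compared in FPKM, which carry no TMM factors. Wild-type replicates 1 and 2 were closer (chi-square of 6.05 per gene) than any other pair within a genotype (28.7 to 116.6), but differed beyond sampling noise and were kept as 2. Alternatives included DESeq2 1.42.0, limma 3.58.1 on log2(FPKM + 1), other scalings and filters, a replicate block and leaving out each library; replicates 1 to 3 alone was added after seeing the data. Deviations from the group means correlated at 0.31 to 0.52 between same-numbered libraries of the 2 genotypes and at −0.48 to 0.45 between others (wild type 2 with knockout 1 at 0.45, above 0.31 for the pair numbered 2). By the rule that every pair be over 0.1 the numbers were taken to pair them, though the labels do not say what they mark. The main test, its SE and its intervals left this pairing out, and the replicate block is given as an alternative.

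The members and gene lists were chosen with earlier results of these data known. Named per class were the up to 6 genes with the smallest p, the 2 most abundant per length, up to 2 with the largest fold against the class, and both rings; per list, the 2 with the smallest p, of which 1 is not reported here. Other genes were named after their values were seen. A ranking of other genes by likeness was planned and not made, since the genotypes form separate clusters.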

Additional observations from a re-analysis of the deposited data

Results flagged for a closer look

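In 5 of 84 groups of 4 libraries (42 named genes, 2 genotypes) 1 library stood far from the other 3 by Dixon's test on log2 CPM; chance gives about 5 percent. Hnrnpa1 was at 831.6 CPM in wild-type replicate 4 against 683 to 703 in the other wild-type libraries, and Lsm8 at 39.2 CPM in the same library against 31.7 to 32.3. Snrpf was at 84.4 CPM in wild-type replicate 3 against 98.5 to 101. In knockout replicate 1 Hnrnpab was at 469.8 CPM against 595 to 618 and Srsf7 at 84.5 CPM against 116 to 122. These genes stayed called lower without those libraries.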

How the results depend on the processing

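Of the 64 tested genes 47 kept their call and direction under all 17 alternatives. The count called lower was 53, 46 to 57 over the alternatives (48 to 52 leaving out 1 library), and the median of the genes less that of all genes was −0.67 to −0.78. The count called higher, 1, and that of the LSm class, 1, became 0 with total-count scaling, with FPKM and in replicates 1 to 3 alone; leaving out 1 library gave 1 each time. With the replicate block 54 fell, against 27.5 percent of all tested genes, and 1 rose. Srsf4 was the one changed call of the 64. Total-count scaling put the median of all genes at −0.23, from 0.03, and the share of higher among called genes at 34.2 percent, from 51.3 (FPKM: 32.0), with 55 splicing genes lower. With total-count scaling and with FPKM, 3 uncalled genes turned negative: Srsf5 (−0.14 and −0.15), Snrpn (−0.18 and −0.16) and Lsm1 (−0.11 and −0.018). Leaving out 1 library put Snrpn at −0.033 (knockout replicate 2) to 0.13 and Lsm1 at −0.012 (knockout replicate 2) to 0.25, and without wild-type replicate 4 Hnrnpul2 was at 0.0054; none was called. Srsf4 was called with upper-quartile factors, total-count scaling, no low-count filter, DESeq2 and FPKM (adjusted p = 0.0364, 0.0396, 0.0475, 0.0368 and 0.0227). Lsm10 and Lsm14a were called lower with FPKM alone (0.0217 and 0.0397). The calls of Hnrnpdl and Hnrnpul1 were also lost with DESeq2's factors, no filter and a mean of at least 50 counts (0.0508 to 0.0633), that of Snrpc with DESeq2's factors (0.0549), and those of Hnrnph2, Hnrnph3 and Hnrnpk in replicates 1 to 3 alone (0.0753, 0.0653 and 0.0825). Where the alternative did not use fewer libraries, the cause was not tested.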
